A study of Equus caballus with 23 samples.

Results

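The genes of the extracellular matrix and of the proteases that cut it were followed in gluteus medius, a large hindquarter muscle, of Arabian horses across race training. The members were taken by symbol from the authors' gene tables. They are the collagens (COL), laminin chains (LAMA, LAMB, LAMC), matrix metalloproteinases (MMP), their tissue inhibitors (TIMP) and ADAMTS proteases listed there, with 15 further matrix proteins sought by symbol. The rule found 51 of the 8842 genes that carry a symbol, out of 26991 identifiers in the count table. LOX, TNC and VCAN had no identifier under those symbols, nor did TIMP1 or MMP9, and they were not analysed here. COL4A3BP was matched by its name only, since it encodes a ceramide transfer protein of the cytosol, and 50 of the 51 are matrix genes. All 51 had enough counts to be tested, but only the 9628 genes annotated in the authors' tables could become members.

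RNA from needle biopsies was sequenced in 23 libraries of male and female horses. At T0 the horses were untrained and 2.5 years old, with 5 libraries (3 from males, 2 from females) numbered m8, m9, m10, m12 and m13. At T1 there were 8 libraries, from horses of 3 years after an intense gallop phase that came before the flat racing season (4 male, 4 female). T2 held 10 libraries of horses aged 3 years when the racing season ended (7 male, 3 female). Age differed only between T0 and the later time points, so age and training cannot be told apart in comparisons with T0. Repeated sampling of a horse is not stated in the labels, and the p-values measure the spread between libraries.

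The matrix of skeletal muscle has layers. Fibrillar collagens form the strands that carry force between fibres, fascicles and tendon, and small proteoglycans such as decorin regulate how those strands assemble. Each fibre is wrapped in a basement membrane, a sheet of laminin and type IV collagen networks joined by nidogen and perlecan, to which the fibre is anchored through dystroglycan and integrins. Metalloproteinases and ADAMTS proteases remodel these layers, and TIMPs inhibit them. Most of this matrix is made by fibroblasts and other cells between the fibres, with a share from the fibres, vessel cells and nerve.

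Total counts per library lay between 12604125 and 17477172 at T0, 15417737 and 23641809 at T1, and 12185608 and 19804694 at T2. Levels are given as CPM, TMM-scaled counts relative to library size, which are not corrected for gene length and so compare libraries and not genes. All 12 skeletal muscle fibre markers were found, with a summed level from 55600 to 121000 CPM. By the edgeR test described below, 1 of the 12 was higher and 1 lower at T1 than T0 (3.57% and 3.34% of all genes). At T2 relative to T1, 4 were higher and 3 lower (12.6% and 15.1% of all genes). At T2 relative to T0, 0 were higher and 0 lower (6.73% and 9.3% of all genes). The 51 matrix genes together came to between 719 and 2145 CPM. In T0 they were split: m8, m9 and m10 had 1870, 2145 and 1880 CPM, whereas m12 and m13 had 925 and 1160 CPM. In T1 they ran from 719 CPM (m3) to 1588 CPM (m6) with a median of 1092 CPM, and in T2 from 766 CPM to 1696 CPM (m14) with a median of 1040.5 CPM. The fibre markers were split in the opposite order, with 55570, 71480 and 75450 CPM in m8, m9 and m10 and 118500 and 111300 CPM in m12 and m13, and their part in the results was not tested. Many members shared the spread. Library m12 held the lowest T0 value of 29 of the 51 genes and m3 the lowest T1 value of 34, while m6 held the highest T1 value of 30 and m15 the highest T2 value of 22.

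**Figure D1:**
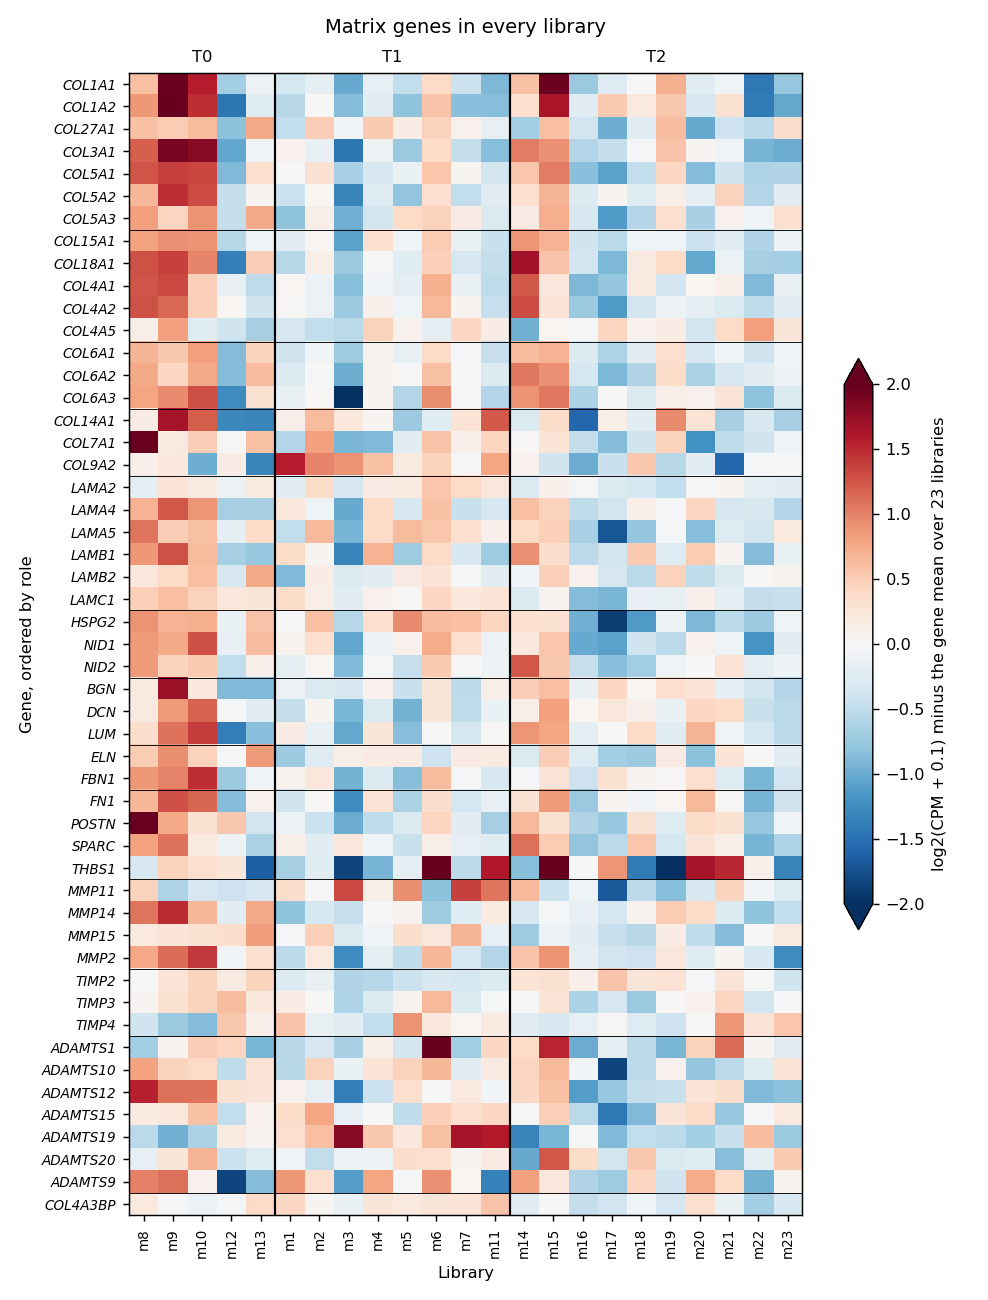
Level of each of the 51 genes (rows, ordered by role) in each of the 23 libraries (columns, by time point), as log2(CPM + 0.1) minus the mean of the gene. Red blocks mark T0 libraries m8, m9 and m10 in most collagen rows, while T0 library m12 and T1 library m3 are mostly blue.

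Because the tissue was taken whole, fewer cells of a type and less RNA per cell cannot be told apart. The summed fibroblast markers were also highest in the untrained libraries m9 and m10. Of 12 fibroblast markers that are not members, 9 were annotated, namely CD34, CLEC3B, DPT, FBLN1, FBLN2, GSN, PDGFRL, PI16 and THY1. FBLN1 and FBLN2 encode secreted matrix proteins and are counted again below with other secreted matrix genes. The summed level of the 9 lay between 164 and 309 CPM at T0, 131 and 181 CPM at T1, and 140 and 241 CPM at T2. The highest values were those of m9 (309 CPM) and m10 (305 CPM). T2 library m15 came next with 241.5 CPM, above m8 with 217.5 CPM, while m12 and m13 had 164.2 and 173.1 CPM. Of the 9, 1 fell at T1 and 1 at T2 relative to T0, 2 rose at T2 relative to T1, and their part in the results was not tested. Over all genes tested, 3.34% were lower at T1 and 9.3% lower at T2 relative to T0. For T2 relative to T1, 12.6% of all genes were higher and 15.1% lower. The 8 annotated endothelial markers summed to 208 to 320 CPM in T0, 181 to 258 CPM in T1 and 159 to 252 CPM in T2, and none was called in any time comparison. The 9 annotated smooth muscle and pericyte markers summed to 517 CPM in m9 and to between 125.5 and 263.7 CPM in the others. Of these 9, 1 fell at T1 and 5 fell at T2 relative to T0, while 2 fell and 1 rose at T2 relative to T1. These counts stand beside the same shares of all genes, and the part of these markers in the results was not tested. Tendon and cartilage markers were represented by THBS4 and CILP alone (64.7 to 150 CPM over all libraries), and no listed skin, neutrophil or red cell marker had an annotated identifier. THBS4 and the endothelial marker VWF are also counted again below with other secreted matrix genes.

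**Figure D2:**
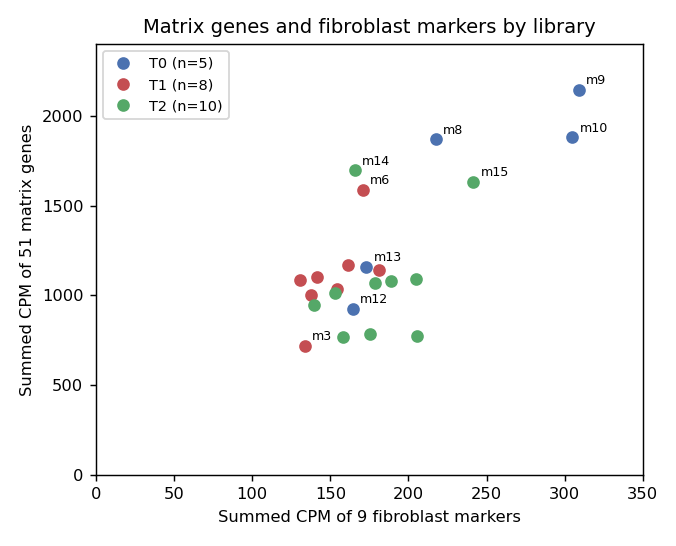
Summed CPM of the 51 matrix genes (vertical axis) against the summed CPM of 9 fibroblast markers (horizontal axis), with each point a library coloured by time point. T0 libraries m9 and m10 lie at the upper right, m8 (217.5 CPM of fibroblast markers) lies near the middle of the horizontal axis with a high matrix sum, and T0 libraries m12 and m13 lie among those of T1 and T2.

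After the gallop phase 8 matrix genes were lower than in untrained muscle and 1 was higher (edgeR quasi-likelihood test). A gene was called where its Benjamini-Hochberg adjusted p over all tested genes was below 0.05. The 8 that fell were COL3A1, COL5A2, DCN, POSTN, MMP2, MMP14, TIMP2 and ADAMTS12, and the gene that rose was ADAMTS19. Over all 11545 genes tested, 3.34% were lower and 3.57% higher in this comparison. The median log2 fold change of the 51 genes was -0.56 against -0.02 over all genes, and 42 of the 51 had a value below 0, as did 52.7% of all genes. The count of 8 depended on single libraries: it was 17 without T0 library m12, 3 without m9 or m10, 4 without m8, and 5 when any of m3, m4, m5, m7 and m11 of T1 was left out.

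Between the gallop phase and the end of the season, LAMA2, LAMC1, HSPG2, COL9A2, MMP11, MMP15, ADAMTS19 and the ceramide transfer gene COL4A3BP fell, and TIMP2 rose. In this comparison 15.1% of all genes were lower and 12.6% higher, so the shares of the 51 are near or under the background. The median log2 fold change was 0.06, against -0.01 over all genes, and 24 of the 51 lay below 0, as did 51% of all genes. The count of 8 ran from 6 to 8 when single libraries were left out.

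At the end of the season 10 genes were lower than in untrained muscle and 0 were higher, against 9.3% and 6.73% of all genes. These were COL5A1, COL7A1, LAMC1, NID1, HSPG2, ELN, POSTN, MMP14, MMP15 and ADAMTS12. None rose by DESeq2 or limma voom either, and at an unadjusted p below 0.05 21 of the 51 genes lay in either direction, as did 3707 of all 11545 genes. The median log2 fold change was -0.50, against -0.04 over all genes, and 45 of the 51 lay below 0, as did 53.4% of all genes. The count of 10 was 20 without T0 library m12, 17 without T2 library m15, 16 without T2 library m14 and 5 without T0 library m8. The comparisons of T1 and of T2 with T0 share the 5 untrained libraries, and those of T1 with T0 and of T2 with T1 share the 8 gallop phase libraries.

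**Figure D3:**
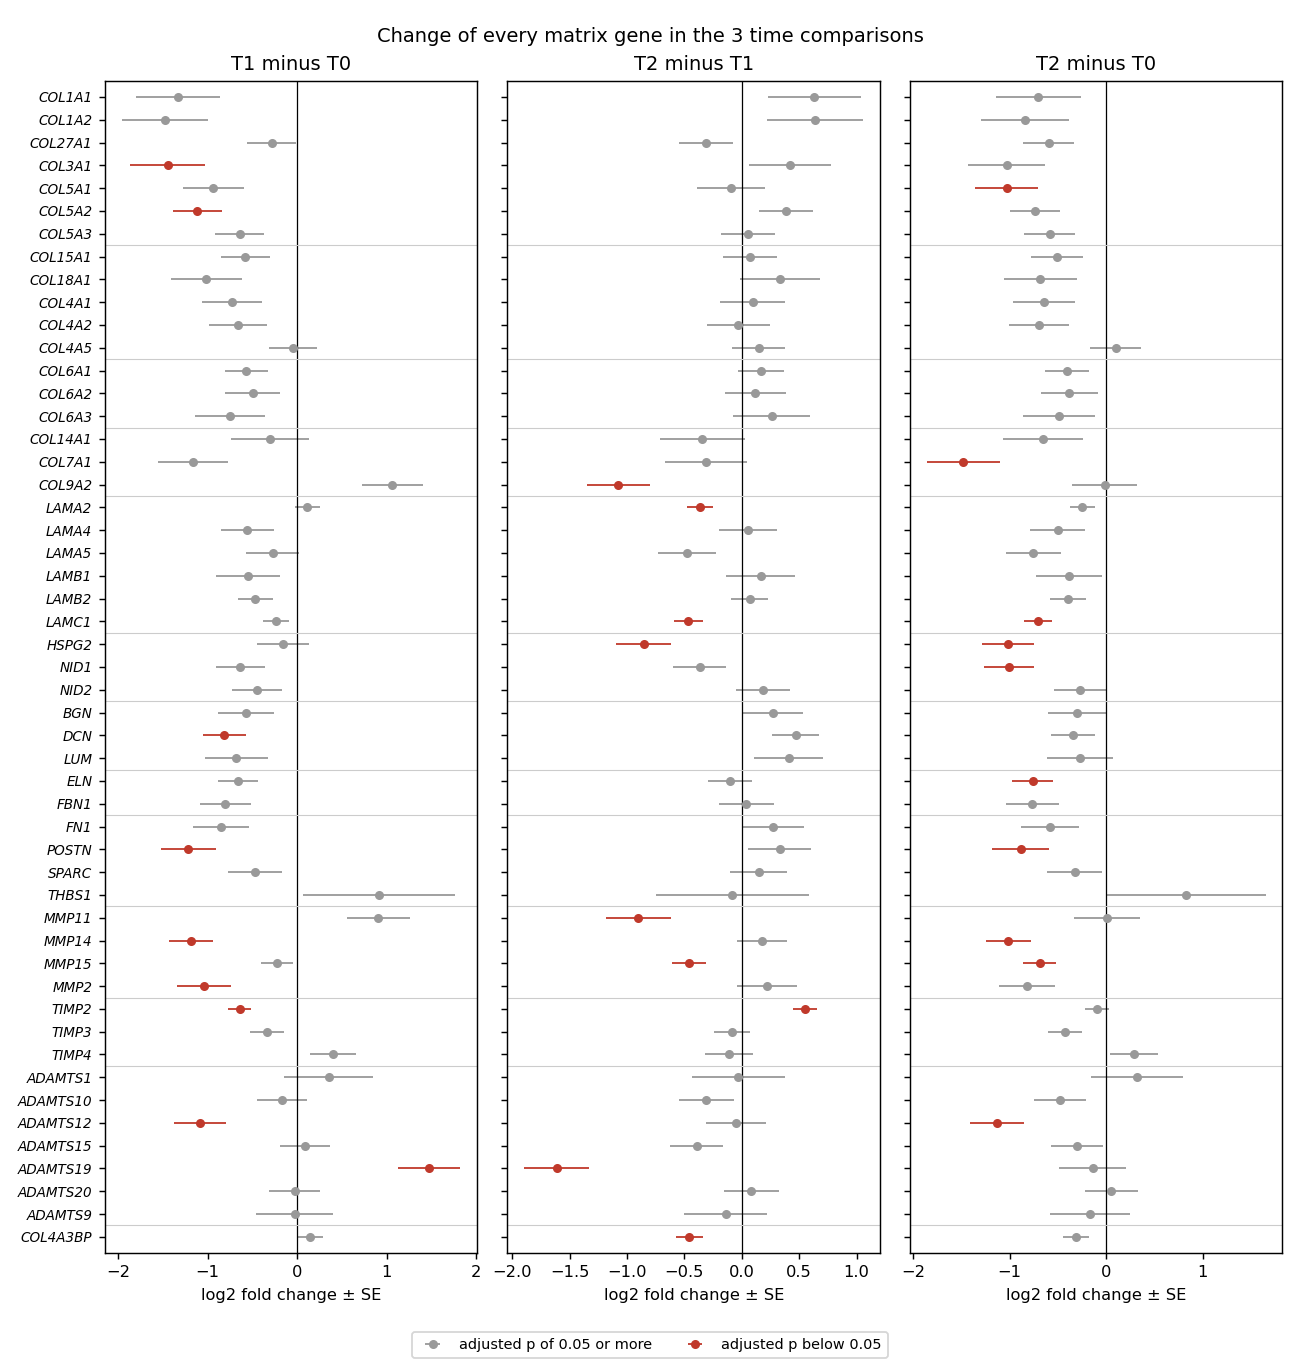
Log2 fold change of each of the 51 genes (points) with its standard error (bars) in the 3 time comparisons, with called genes in red. Fibrillar collagens lie left of 0 for T1 minus T0, and the red points for T2 minus T1 are LAMA2, LAMC1, HSPG2, COL9A2, MMP11, MMP15, ADAMTS19 and COL4A3BP to the left and TIMP2 to the right.

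Fibrillar collagens, which build the load-bearing strands, were represented by 7 genes. At T1, 2 of the 7 were lower than at T0 and none was higher, with log2 fold changes from -1.48 to -0.28 and a median of -1.12. COL3A1, the chain of type III collagen (ENSECAG00000024769, chromosome 18, 65487247 to 65526274 in the authors' tables), stood in T0 at 71.2 CPM in m8, 116 in m9, 110.5 in m10, 15.05 in m12 and 29.2 in m13. It ran from 11.4 to 41.1 CPM at T1 with a median of 25.1, and at T2 from 15.5 to 62.9 CPM with a median of 30.02. The T0 values therefore overlapped those of T1 only through m12 and m13. COL3A1 fell in T1 by 1.45 log2 units (SE 0.42, adjusted p = 0.0404), a call lost in 9 of 23 fits that each left out 1 library, with no filter on low counts, and in a fit of T0 and T1 alone. In T2 relative to T0 it had -1.03 ± 0.40 and did not pass by edgeR (adjusted p = 0.0786), while limma voom called it lower (adjusted p = 0.0193).

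COL5A2, a chain of the type V collagen that nucleates fibrils, lies 23083 bases from COL3A1 on chromosome 18 (ENSECAG00000008499, 65549357 to 65689370). Its T0 values were 10.7, 18.9, 16.6, 4.77 and 6.97 CPM in m8, m9, m10, m12 and m13. T1 ran from 2.63 to 8.44 CPM (median 5.25) and T2 from 4.43 to 10.8 CPM (median 6.42). It fell in T1 by 1.12 (SE 0.27, adjusted p = 0.0157), and not without m9 (adjusted p = 0.0674) or m10 (adjusted p = 0.0717). In T2 relative to T0, COL5A2 had -0.74 ± 0.26 and did not pass by edgeR (adjusted p = 0.0545). There DESeq2 (adjusted p = 0.0458), limma voom (adjusted p = 0.006) and edgeR with sex as a covariate (adjusted p = 0.039) called it lower. Its partner chain COL5A1 was lower in T2 than in T0, with a log2 difference of -1.03 ± 0.33 (adjusted p = 0.035). That call was lost in 8 of 23 fits that left out 1 library, with no filter (adjusted p = 0.0778) and in a fit of T0 and T2 alone (adjusted p = 0.0756). COL5A1 had 12.1, 13 and 12.7 CPM in m8, m9 and m10, then 2.65 and 6.36 CPM in m12 and m13, against 2.33 to 10.2 CPM in T2, so that m8, m9 and m10 lay above all T2 libraries.

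The chains of type I collagen, the main fibrillar collagen of tendon and of muscle connective tissue, did not pass in T1 relative to T0 by edgeR. COL1A1 had a log2 fold change of -1.33 ± 0.47 in T1 relative to T0 (SE, adjusted p = 0.0866), and COL1A2 of -1.48 ± 0.48 (adjusted p = 0.0676). COL1A1 stood at 15.6, 40.6, 30.9, 6.36 and 9.56 CPM in m8, m9, m10, m12 and m13, a 6.38-fold range inside the untrained group. T1 ran from 5.08 to 13.7 CPM and T2 from 3.78 to 40.5 CPM, the highest T2 value being that of m15. DESeq2 called COL1A2 in T1 relative to T0 (adjusted p = 0.038), and so did limma voom (adjusted p = 0.0333). Limma voom also called COL1A1 lower in T1 (-1.42, adjusted p = 0.0221) and in T2 (-1.18, adjusted p = 0.037), each relative to T0. In T2 relative to T1 none of the 7 fibrillar collagens was called by edgeR. COL1A1 had 0.63 ± 0.40 (adjusted p = 0.255) and COL1A2 0.64 ± 0.42 (adjusted p = 0.265).

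Among the small proteoglycans, decorin (DCN), which binds collagen fibrils and limits their thickness, fell in T1 by 0.81 log2 units (SE 0.24, adjusted p = 0.0394). DCN stood at 64.8, 103, 129.5, 55.3 and 48.5 CPM in the T0 libraries m8, m9, m10, m12 and m13. It ran from 29.6 to 67.0 CPM at T1 (median 43.7), and at T2 from 39.1 to 100.2 CPM (median 61.7). T0 and T1 overlapped between 48.5 and 67.0 CPM, and the call was lost in 8 of 23 fits that left out 1 library, with no filter on low counts (adjusted p = 0.0662) and in a fit of T0 and T1 alone (adjusted p = 0.067). LUM, which encodes lumican and lies 38098 bases from DCN on chromosome 28, had -0.68 ± 0.35 (adjusted p = 0.27), and biglycan (BGN) -0.57 ± 0.31 (adjusted p = 0.29).

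Periostin (POSTN), a matricellular protein that aids collagen crosslinking, fell in T1 by 1.22 (SE 0.31, adjusted p = 0.0197) and in T2 relative to T0 by 0.88 (SE 0.30, adjusted p = 0.0432). Its T0 values were 13 CPM in m8 and 5.22, 3.79, 4.45 and 2.31 CPM in m9, m10, m12 and m13. T1 ran from 1.49 to 4.16 CPM and T2 from 1.75 to 4.82 CPM, so that the groups overlapped below m8 and m9. Without m8 the values were -0.64 (adjusted p = 0.18) and -0.30 (adjusted p = 0.485), and the call at T2 was lost in 10 of 23 fits, with no filter (adjusted p = 0.0785) and in a fit of T0 and T2 alone (adjusted p = 0.0755). Fibronectin (FN1), an adhesive glycoprotein, had -0.85 ± 0.32 in T1 (adjusted p = 0.104) and -0.58 ± 0.30 in T2 (adjusted p = 0.186) by edgeR, each relative to T0. Limma voom called FN1 lower in both (-0.95, adjusted p = 0.0384, and -0.87, adjusted p = 0.037). SPARC, a collagen-binding glycoprotein, had -0.47 ± 0.30 by edgeR in T1 relative to T0 (adjusted p = 0.384).

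Of the elastic fibre genes, elastin (ELN) was lower in T2 than in T0 by 0.76 on the log2 scale (log2 fold change -0.76 ± 0.21, adjusted p = 0.0187). ELN stood at 3.6, 4.89, 3.47, 2.44 and 4.61 CPM in m8, m9, m10, m12 and m13, and ran from 1.38 to 3.56 CPM in T2. The call ended without m9 (adjusted p = 0.0728) or m13 (adjusted p = 0.0619). Fibrillin (FBN1), the microfibril protein, had -0.77 ± 0.27 in the same comparison and did not pass (adjusted p = 0.0564).

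**Figure D4:**
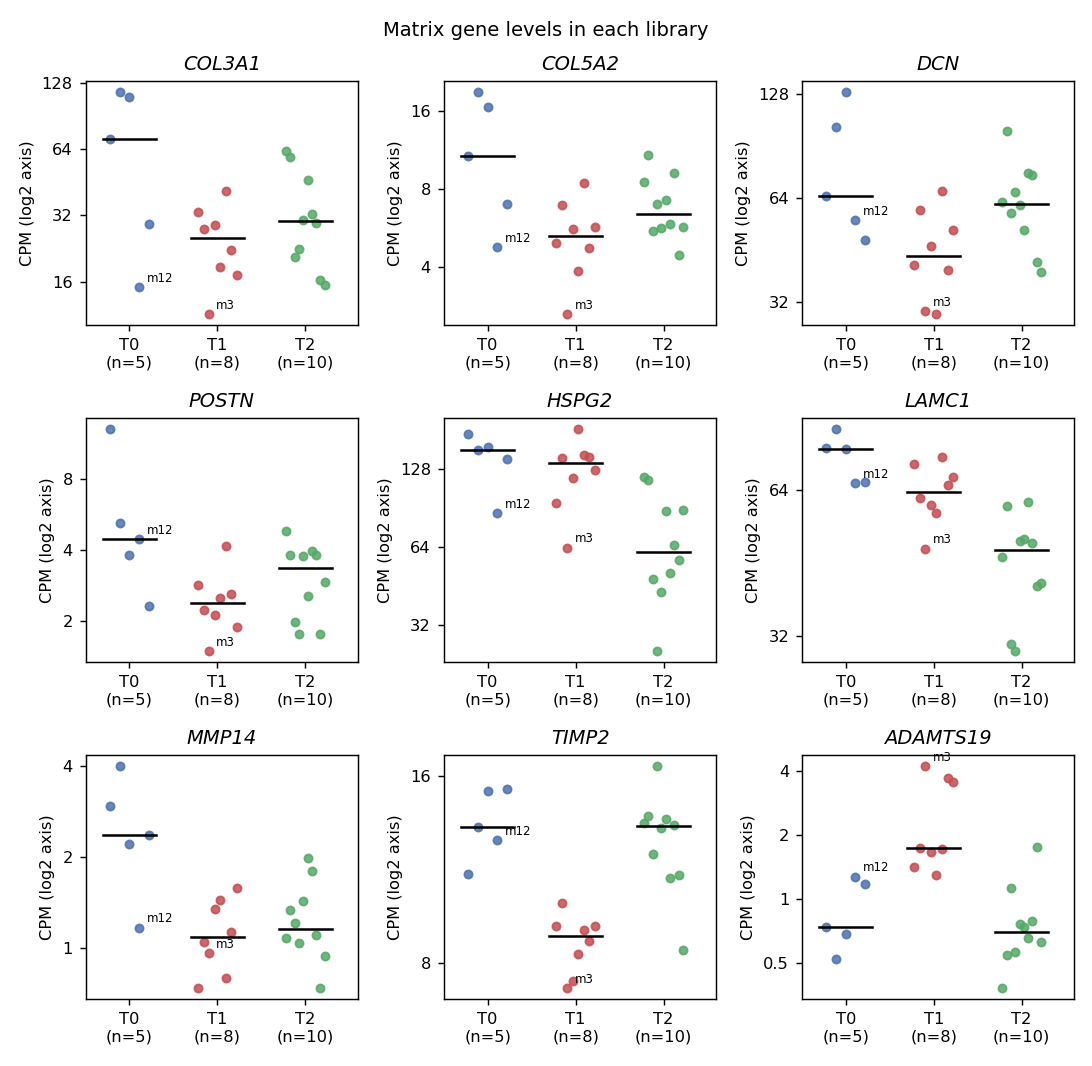
CPM of 9 matrix genes in each library (points) on log2 axes, by time point, with the median as a line; m12 of T0 and m3 of T1 are labelled. Most T0 points of COL3A1 and MMP14 lie above those of T1, HSPG2 and LAMC1 are low in T2, and TIMP2 and ADAMTS19 move in opposite directions in T1.

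In the basement membrane, LAMC1, the gamma chain shared by most laminins (ENSECAG00000023141, chromosome 5, 20070698 to 20185053), stood in T0 at 78.3, 85.7, 78.1, 66.2 and 66.6 CPM in m8, m9, m10, m12 and m13. It ran from 48.4 to 75.2 CPM at T1 (median 63.7), and at T2 from 29.8 to 60.5 CPM (median 48.3). All 10 T2 libraries lay below all 5 T0 libraries, as for 1.72% of all genes in this comparison. LAMC1 fell by 0.70 in T2 relative to T0 (SE 0.14, adjusted p = 0.0042) and by 0.47 relative to T1 (SE 0.12, adjusted p = 0.00744), and neither call was lost when any 1 library was left out. In T1 relative to T0 it had -0.24 ± 0.15 (adjusted p = 0.382). Whether the T2 minus T1 change differed from the T1 minus T0 change was not tested.

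HSPG2 encodes perlecan, the heparan sulfate proteoglycan that ties laminin to type IV collagen (ENSECAG00000012961, chromosome 2, 32685592 to 32750712). Its T0 values were 176, 153, 156, 86.6 and 140.1 CPM in m8, m9, m10, m12 and m13. T1 ran from 63.8 (m3) to 183 CPM with a median of 135 CPM, and T2 from 25.4 (m17) to 119.5 CPM with a median of 61.4 CPM. HSPG2 fell by 0.85 in T2 relative to T1 (SE 0.24, adjusted p = 0.0109) and by 1.01 relative to T0 (SE 0.27, adjusted p = 0.0161). At T1 it stood -0.16 ± 0.29 from T0 (adjusted p = 0.811), and the call against T0 was lost without m8 (adjusted p = 0.0557). NID1, the nidogen that bridges laminin and type IV collagen, fell in T2 relative to T0 (log2 fold change -1.003 ± 0.26, adjusted p = 0.0138; 0.0616 without m10), while NID2 had -0.27 ± 0.27 (adjusted p = 0.522). NID1 stood at 18.4, 17.3, 24.9, 9.12 and 15.6 CPM in m8, m9, m10, m12 and m13, and ran from 4.43 to 15 CPM in T2, so that the groups overlapped.

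Of the other basement membrane genes, LAMA2 alone was called by edgeR with all libraries, as described after them. COL4A1 and COL4A2, the chains of the network collagen, lie 197976 bases apart on chromosome 17. COL4A1 stood at 315, 328, 183, 118 and 92.6 CPM in m8, m9, m10, m12 and m13, from 73.0 to 215 CPM at T1, and at T2 from 70.6 to 311 CPM. Its log2 fold change was -0.73 ± 0.34 in T1 relative to T0 (adjusted p = 0.197), and that of COL4A2 was -0.67 ± 0.32 (adjusted p = 0.232). In T2 relative to T0, COL4A1 had -0.64 ± 0.32 (adjusted p = 0.168) and COL4A2 -0.69 ± 0.31 (adjusted p = 0.121) by edgeR. Limma voom called both lower there (-0.86, adjusted p = 0.0376, and -0.89, adjusted p = 0.0183). Without m14 edgeR did too (adjusted p = 0.0368 and 0.0131). The laminin chains LAMA4, LAMA5, LAMB1 and LAMB2 had values between -0.56 and -0.28 in T1 relative to T0. In T2 relative to T0 they lay between -0.76 and -0.38, and none of these values passed by edgeR with all libraries.

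LAMA2 (ENSECAG00000023844) encodes the alpha chain of the laminin of the muscle fibre basement membrane, whose loss causes a congenital muscular dystrophy. The gene as a whole fell by 0.36 in T2 relative to T1 (SE 0.11, adjusted p = 0.018), from 39.4 ± 7.85 CPM (SD, n = 8) to 30.7 ± 4.03 CPM (SD, n = 10). It is the 1 member with more than 1 tested transcript under its symbol, of 42 genes with 43 tested transcripts. The longer transcript (ENSECAT00000028988) spans chromosome 10 from 75500015 to 76040028 and the shorter (ENSECAT00000025657) from 75851989 to 76040239, so the second covers the part of the first towards the higher coordinates. Of the 43 member transcripts, 6 were called at T1 relative to T0, 9 at T2 relative to T1 and 8 at T2 relative to T0, against 4.98%, 23.9% and 12.4% of all transcripts. The longer transcript had 8.60, 10.4, 11.6, 6 and 13.7 CPM in the T0 libraries m8, m9, m10, m12 and m13. It ran from 8.47 (m3) to 21.8 CPM at T1 with a median of 16.7 CPM, and at T2 from 1.28 (m17) to 7.18 CPM with a median of 4.76 CPM. No T2 library reached the lowest T1 library. The shorter transcript ran from 20.9 to 30.9 CPM in T0, from 15.4 to 29.4 CPM at T1, and at T2 from 19.7 to 29.8 CPM, which overlap almost wholly.

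In the edgeR fit of all transcripts, the longer transcript fell in T2 by 1.71 relative to T1 (SE 0.23, adjusted p = 4.64e-05) and had -0.999 ± 0.26 relative to T0 (adjusted p = 0.0176). In T1 relative to T0 the longer transcript had 0.71 ± 0.28 (adjusted p = 0.144). The shorter transcript had 0.17 ± 0.12 (adjusted p = 0.32) in T2 relative to T1. The longer transcript made up 28.1% ± 5.88 of the pair's counts at T0 (SD over 5 libraries). Its share was 42% ± 7.35 at T1 (SD, n = 8), and 16.4% ± 5.07 at T2 (SD, n = 10). The log2 ratio of the longer transcript to the shorter transcript, with 0.5 added to each count, differed by -1.96 between T2 and T1 without overlap (exact two-sided permutation p = 2.29e-05, the smallest it can give, adjusted p = 6.86e-05 over 3 comparisons). It differed by 0.90 between T1 and T0 (exact permutation p = 0.00544, adjusted p = 0.00544) and by -1.06 between T2 and T0 (exact permutation p = 0.00366, adjusted p = 0.00544). This ratio was chosen after the values were seen. RSEM divides short reads that fit both transcripts by estimation, and uneven coverage along so long a gene was not tested as a part of the shift.

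**Figure D5:**
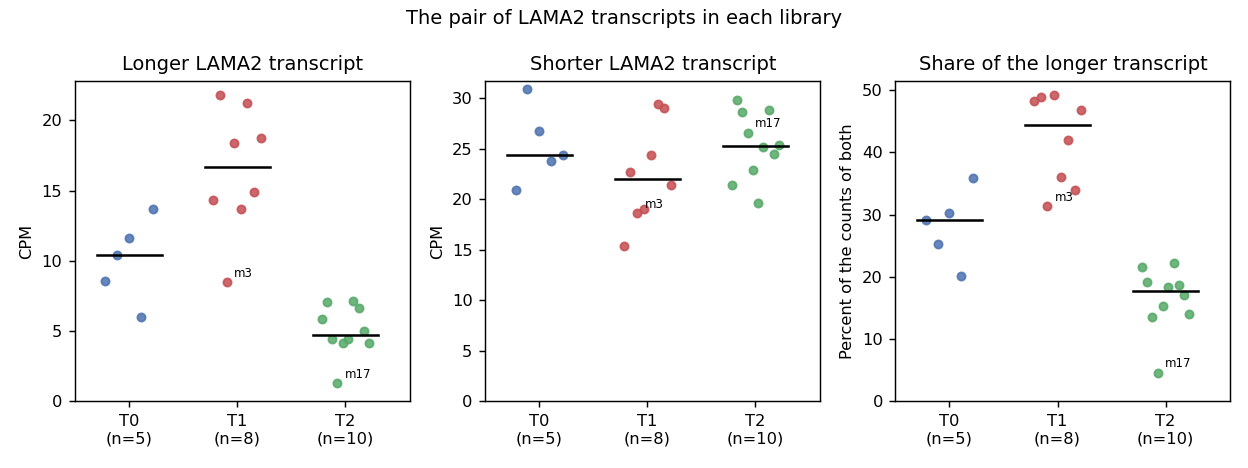
CPM of the longer and the shorter LAMA2 transcript and the percent of their joint counts taken by the longer transcript, for each library (points) by time point, with medians as lines. The longer transcript is high in T1 and low in T2, with shares of 31.3% to 49.2% at T1 and 4.6% to 22.2% at T2, while the ranges of the shorter transcript overlap.

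Type VI collagen forms beaded filaments next to the basement membrane, and its loss also causes muscular dystrophy. None of COL6A1, COL6A2 and COL6A3 was called in any comparison by edgeR with all libraries. Their log2 fold changes were -0.57 ± 0.24, -0.50 ± 0.31 and -0.75 ± 0.39 in T1 relative to T0 (adjusted p = 0.154, 0.377 and 0.271). COL6A1 had 55.5, 50.5, 61.3 and 47.2 CPM in m8, m9, m10 and m13 and 19 CPM in m12. Without m12 its value in T1 relative to T0 was -0.76 (adjusted p = 0.0264). Limma voom called COL6A1 lower in T1 (-0.61, adjusted p = 0.0456) and in T2 (-0.57, adjusted p = 0.0428), each relative to T0. COL7A1, the anchoring fibril collagen of skin, fell in T2 relative to T0 by 1.48 (SE 0.38, adjusted p = 0.0126), a call lost without m8. It had 7.95 CPM in m8 and 1.43, 1.79, 1.27 and 1.91 CPM in m9, m10, m12 and m13, and without m8 its log2 fold change was -0.59 (adjusted p = 0.242). COL9A2, a fibril-associated collagen chain typical of cartilage, fell in T2 relative to T1 by 1.08 (SE 0.28, adjusted p = 0.00519) from 1.13 to 3.57 CPM in T1 to 0.316 to 1.69 CPM in T2. It ran from 0.394 to 1.33 CPM in T0 and had -0.02 ± 0.34 in T2 relative to T0 (adjusted p = 0.982). In T1 relative to T0, COL9A2 had 1.06 ± 0.34 and did not pass by edgeR (adjusted p = 0.0564). There DESeq2 (adjusted p = 0.0255), limma voom (adjusted p = 0.0423) and edgeR with sex as a covariate (adjusted p = 0.0226) called it higher. It was counted 6 to 63 times per library.

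Among the proteases, MMP14, a membrane-bound metalloproteinase that cleaves collagen and activates pro-MMP2, stood at 2.95, 3.99, 2.21, 1.17 and 2.36 CPM in m8, m9, m10, m12 and m13. It ran from 0.736 to 1.58 CPM at T1, and at T2 from 0.738 to 1.98 CPM, so that only m12 overlapped the later time points. MMP14 fell by 1.19 in T1 relative to T0 (SE 0.25, adjusted p = 0.00518) and by 1.01 in T2 relative to T0 (SE 0.23, adjusted p = 0.00759). Both calls held when any 1 library was left out, although the gene was counted only 8 to 84 times per library. MMP2, the gelatinase that MMP14 activates, fell by 1.04 in T1 relative to T0 (SE 0.30, adjusted p = 0.0381). Its T0 values were 9.99, 12.8, 15.7, 5.62 and 7.31 CPM in m8, m9, m10, m12 and m13, against 2.37 to 9.33 CPM in T1 with a median of 4.32. That call was lost in 9 of 23 fits that left out 1 library and without the filter on low counts. In T2 relative to T0, MMP2 had -0.82 ± 0.29 and did not pass by edgeR (adjusted p = 0.0538). There DESeq2 (adjusted p = 0.0419), limma voom (adjusted p = 0.00401) and edgeR with sex as a covariate (adjusted p = 0.0475) called it lower.

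MMP15, another membrane-bound metalloproteinase, fell at T2. It had 20.7, 21.4, 22.3, 23.1 and 32.2 CPM in m8, m9, m10, m12 and m13, from 14.6 to 28.9 CPM at T1, and at T2 from 9.86 to 20.5 CPM. All T2 libraries lay below all T0 libraries, as for 1.72% of all genes, by a narrow margin between 20.5 CPM (m23) and 20.7 CPM (m8). MMP15 fell in T2 by 0.46 relative to T1 (SE 0.15, adjusted p = 0.0247) and by 0.69 relative to T0 (SE 0.17, adjusted p = 0.0106). The first call ended without T1 library m2 or m7, and the second without T0 library m13 (adjusted p = 0.0519). MMP11, a secreted metalloproteinase, ran from 1.28 to 2.78 CPM at T0, from 1.10 to 5.35 CPM at T1 and from 0.561 to 3.23 CPM at T2. It fell in T2 relative to T1 by 0.90 (SE 0.28, adjusted p = 0.0201), a call that ended without T1 library m7 (adjusted p = 0.0546). MMP11 had 0.91 ± 0.35 in T1 relative to T0 (adjusted p = 0.117) and 0.006 ± 0.34 in T2 relative to T0 (adjusted p = 0.994).

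TIMP2, which inhibits metalloproteinases and also takes part in the activation of pro-MMP2 by MMP14, was lower at T1 than at either other time point. It stood at 11.1, 13.2, 15.15, 12.6 and 15.2 CPM in m8, m9, m10, m12 and m13. The 8 T1 libraries ran from 7.27 to 9.99 CPM with a median of 8.84 CPM, below every T0 library, as for 1.12% of all genes. The T2 libraries ran from 8.38 (m23) to 16.6 CPM with a median of 13.3 CPM, and m23 was the only 1 of the 10 inside the T1 range. TIMP2 fell by 0.64 in T1 (SE 0.13, adjusted p = 0.00391), rose by 0.55 ± 0.11 in T2 relative to T1 (adjusted p = 0.000687), and had -0.09 ± 0.12 in T2 relative to T0 (adjusted p = 0.631). Both calls held in all 23 fits that left out 1 library. TIMP3, an inhibitor bound to the matrix, had -0.34 ± 0.19 (adjusted p = 0.296) and TIMP4, an inhibitor found in heart and muscle, 0.40 ± 0.26 (adjusted p = 0.396) in T1 relative to T0.

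The ADAMTS proteases cut proteoglycans, procollagens and other matrix proteins. Of 7 genes, ADAMTS19 was the one that rose. It stood at 0.737, 0.522, 0.684, 1.27 and 1.18 CPM in m8, m9, m10, m12 and m13, from 1.30 to 4.21 CPM at T1 (median 1.73), and at T2 from 0.380 to 1.75 CPM (median 0.697). The T1 libraries lay above all T0 libraries, by a narrow margin over m12, as for 1.86% of all genes. ADAMTS19 rose in T1 by 1.47 ± 0.35 (SE, adjusted p = 0.0119) and fell in T2 by 1.61 relative to T1 (SE 0.28, adjusted p = 0.00023), on 6 to 66 counts per library. Both calls held when any 1 library was left out. ADAMTS12 fell by 1.08 in T1 (SE 0.29, adjusted p = 0.0248) and by 1.13 in T2 (SE 0.28, adjusted p = 0.0101), each relative to T0. It had 5.90, 4.32, 4.26, 2.44 and 2.36 CPM in m8, m9, m10, m12 and m13, on 8 to 144 counts per library. T1 ran from 0.701 to 2.51 CPM (median 1.92) and T2 from 0.863 to 3.01 CPM (median 1.4), so that m12 and m13 lay inside both ranges. Without m8 neither ADAMTS12 call passed (adjusted p = 0.105 and 0.0529), and the call at T1 was also lost without m9 (adjusted p = 0.0588) or m10 (adjusted p = 0.0733). The other 5, ADAMTS1, ADAMTS9, ADAMTS10, ADAMTS15 and ADAMTS20, were not called in any comparison.

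Collagen chains varied together from library to library after the time point means were removed. The correlations were over 23 libraries, for 8 pairs chosen for known partnership. The permutations exchanged values over all 23 libraries and not within time points. The p-values therefore take the spread as alike in the time points, which was not tested. Pearson's r was 0.927 for COL1A1 with COL1A2 (Spearman's rho 0.884; permutation p = 1e-05, the smallest that 100000 resamples can give, adjusted p = 1.6e-05 for r and 2e-05 for rho). It was 0.934 for COL4A1 with COL4A2 (rho 0.823, permutation p = 1e-05 and 2e-05, adjusted p = 1.6e-05 and 3.2e-05). COL6A1 had r = 0.954 with COL6A2 (rho 0.945) and r = 0.859 with COL6A3 (rho 0.848), and COL1A1 had r = 0.904 with COL3A1 (rho 0.94), each with the same smallest permutation p. Without the libraries farthest from the median of the first gene, r was 0.904, 0.898, 0.941, 0.788 and 0.930 in the order given. The ratio of COL4A1 to COL4A2 counts ran from 1.7 to 3.29 over the libraries, with an SD of 0.225 on the log2 scale, against SDs of 0.65 and 0.63 for the levels of each. COL6A1 and COL6A2 lie 1266 bases apart on chromosome 26.

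The other pairs were a collagen with SPARC and proteases with an inhibitor. COL1A1 with SPARC had r = 0.637 (rho 0.667, permutation p = 0.00094 and 0.00062, adjusted p = 0.00125 and 0.000827), r = 0.557 without m9 and m15, with 0.111 within T1 and 0.672 within T2. MMP2 with TIMP2 had r = 0.514 (permutation p = 0.0117, adjusted p = 0.0133) and a rho of 0.364 that did not pass (permutation p = 0.0896, adjusted p = 0.102), with r = 0.517 without m6 and m15. MMP14 with TIMP2 had r = 0.056 (rho -0.012, permutation p = 0.798 and 0.958, adjusted p = 0.798 and 0.958) and r = 0.023 without m9 and m12. All pairs share their libraries and the scaling of each library.

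No matrix gene passed the test of a difference between male and female horses in the edgeR model with time point (0 of 51, as for 0 of all 11545 genes; smallest adjusted p = 0.615). Unadjusted p-values were below 0.05 for 10 of the 51, against 6.23% of all genes, and 39 of the 51 had a lower level in males, as did 49.9% of all genes. The lowest p was that of DCN, with 53.8 CPM in males and 71.5 CPM in females, or -0.52 ± 0.15 in log2 units (adjusted p = 0.615). The time course did not pass a test for a difference between the sexes for any of the 51 (0 of all genes; 1 of the 51 at an unadjusted p below 0.05).

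The genes that make, crosslink or bind matrix were taken from lists of the wider pathway. Calls in these lists are those of the edgeR fit of all libraries. Whether they held without single libraries is not given here. At T1, 3.57% of all genes were higher than at T0 and 3.34% lower, the background for each list's count there. Of 18 tested matrix-making enzymes and chaperones, 3 fell and none rose at T1 (median log2 fold change -0.38). CRTAP, a partner of the prolyl hydroxylase of collagen, fell by 0.59 (SE 0.13, adjusted p = 0.00879). PLOD1, a collagen lysyl hydroxylase, fell by 0.76 (SE 0.18, adjusted p = 0.0116). Against T1, 3 of the 18 were higher at T2 and 1 was lower, near or under the shares of 12.6% and 15.1% of all genes. Among them were CRTAP (0.58 ± 0.11, adjusted p = 0.000682) and PLOD2, another lysyl hydroxylase (0.96 ± 0.20, adjusted p = 0.00103). Relative to T0, where 9.3% of all genes were lower, 2 fell at T2, namely the transglutaminase TGM2 (-0.79 ± 0.20, adjusted p = 0.0131) and COLGALT1, which adds sugar to collagen (-0.67 ± 0.17, adjusted p = 0.0133).

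Of 19 matrix receptors, 2 rose and 2 fell in T1, 5 fell in T2 relative to T1, and 8 fell with 0 risen in T2 relative to T0 (median log2 fold change -0.49). Of all genes, 15.1% were lower at T2 than at T1 and 9.3% lower at T2 than at T0. DAG1, the dystroglycan that anchors laminin to the fibre, went from 128 CPM in T0 to 85.4 CPM in T2 (log2 fold change -0.59 ± 0.15, adjusted p = 0.0133). DDR1, a collagen receptor kinase, had -0.66 ± 0.17 in the same comparison (adjusted p = 0.0129). The integrin subunit ITGB6 rose by 0.54 ± 0.13 in T1 (adjusted p = 0.0168) and fell by 0.64 in T2 relative to T1 (SE 0.11, adjusted p = 0.000195). ITGB5, a partner of the alpha V integrin, fell by 0.32 in T2 relative to T1 (SE 0.09, adjusted p = 0.00707), and the syndecan SDC2 fell by 0.65 in T1 (SE 0.18, adjusted p = 0.0304).

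Of 16 genes of TGF-beta signalling, a main inducer of collagen genes, 1 rose in T1, while 7 were lower and 1 higher at T2 than at T1, and 4 fell in T2 relative to T0. Of all genes, 15.1% were lower and 12.6% higher at T2 than at T1, and 9.3% were lower at T2 than at T0. The ligand TGFB2 rose in T1 by 1.21 ± 0.24 (adjusted p = 0.00397), from 4.90 to 11.5 CPM. Its signal transducers parted in T2 relative to T1: SMAD3 fell by 0.86 (SE 0.18, adjusted p = 0.00109) and SMAD2 rose by 0.58 ± 0.12 (adjusted p = 0.00126). The receptor TGFBR1 fell by 0.72 (SE 0.19, adjusted p = 0.0151) and the repressor SKI by 0.75 (SE 0.22, adjusted p = 0.0226) in T2 relative to T0.

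Among 23 other secreted matrix genes 1 was lower in each comparison, a share near or under the 3.34%, 15.1% and 9.3% of all genes. These were ECM1 in T1 (-0.92 ± 0.23, adjusted p = 0.0165) and FRAS1, a basement membrane protein, in T2 relative to T1 (-1.32 ± 0.17, adjusted p = 1.52e-05) and to T0 (-0.68 ± 0.20, adjusted p = 0.0246). Among 16 other proteases and inhibitors 1 fell in T1, 1 in T2 relative to T1 and 2 in T2 relative to T0, against the same shares of all genes. CTSK, the collagen-degrading cathepsin, fell in T1 by 0.82 (SE 0.21, adjusted p = 0.0211). ADAM19, a membrane-bound metalloprotease, fell in T2 by 1.05 relative to T1 (SE 0.23, adjusted p = 0.00186) and by 0.97 relative to T0 (SE 0.27, adjusted p = 0.0169), and ADAM10, a sheddase, fell by 0.53 relative to T0 (SE 0.18, adjusted p = 0.0432).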

How the data were processed

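FastQC, STAR, RSEM and DESeq2 are the tools listed in the submitters' processing notes, and no version is listed. The genome build and how technical repetitions were pooled are not given in the sources used here. Deposited tables hold expected counts per gene and per transcript, estimated by RSEM per the submitters' processing notes and whole numbers as deposited by the authors. Symbols, coordinates and transcript numbers were taken from the authors' deposited comparison tables, whose fold changes were not used.

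Genes with enough counts (edgeR filterByExpr, minimum count 10, minimum total 15) were kept: 11545 of 26991 genes with 99.93% of counts, and 12334 of 29196 transcripts. With TMM scaling, edgeR 4.0.16 under R 4.3.3 fitted all 3 time points together (quasi-likelihood F test, robust), and p-values were adjusted by Benjamini-Hochberg over all genes or transcripts with a threshold of 0.05. The standard error is the absolute log2 fold change divided by the root of F. Log2 CPM used a prior count of 2. Sex was tested in a model with time point, and by interaction. Alternatives were DESeq2 1.42.0, limma 3.58.1 (voom with sample weights), median ratio scaling, no filter, sex as a covariate, only the time points compared, and leaving out each library. Leaving out m3 and m12 together was added after seeing the data. On simulated data for T1 minus T0 (11545 genes), the test recovered 87% of 100 genes changed 2-fold and 99% of 100 changed 4-fold, with 11 false calls. The changed genes were drawn only from genes with higher counts, so low-count members such as MMP14, ADAMTS19 and COL9A2 were outside that draw. Each gene was simulated on its own, without the spread that many members shared between libraries. The recovery therefore need not hold for the matrix genes. Genes named are those called in any time comparison, a fixed panel, the 5 with the highest mean CPM and, from each pathway list, up to 2 called genes with the smallest p. LUM, BGN, FBN1, NID2, LAMA4, LAMA5, THBS1 and the ADAMTS genes that were not called fall outside this rule and were named after their values were seen. No library pair held identical values. The members and lists were chosen with earlier results of these data known. Python 3.11.15, SciPy 1.17.1 and matplotlib 3.10.9 were used for permutations and figures. Sequences were not analysed here.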

Additional observations from a re-analysis of the deposited data

Results flagged for a closer look

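In each time point of each of the 33 named genes, the highest and the lowest library were compared with the next on the log2 CPM scale by Dixon's ratio at the 95% level. Of 99 such groups 7 had a library that stood apart, and chance gives this for about 1 in 20 groups. In T0, m12 was low for COL6A1 (19 CPM, next m13 with 47.2) and COL6A2 (13.7 CPM, next m9 with 33.3). Also in T0, m8 was high for COL7A1 (7.94 CPM, next m13 with 1.91) and MMP11 (2.78 CPM, next m10 with 1.58), and m13 was high for MMP15 (32.2 CPM, next m12 with 23.1). In T1, m3 was low for ADAMTS12 (0.701 CPM, next m4 with 1.44). In T2, m14 was high for COL4A1 (311 CPM, next m15 with 155).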

How the results depend on the processing

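No paired analysis was possible because the labels do not state which horse each library came from. Of 28 calls of a member gene in a comparison, 12 held in every fit that left out 1 library and in every other setting run. Those 12 were of TIMP2, ADAMTS19, MMP14 and LAMC1 (2 each) and of HSPG2, LAMA2, COL9A2 and COL4A3BP at T2 relative to T1. Genes higher at T1 than T0 numbered 2 with DESeq2, limma voom or sex as a covariate, and 1 to 2 when single libraries were left out. Genes lower there numbered 5 without the filter on low counts and 17 with limma voom, and 3 to 17 when single libraries were left out. Genes higher at T2 than T1 numbered 2 with sex as a covariate and 1 to 2 without single libraries. Genes lower at T2 than T0 numbered 25 with limma voom and 21 without m3 and m12 together, a setting chosen after seeing the data, and 5 to 20 without single libraries. Transcripts called ran from 3 to 11 for T1 minus T0 and from 5 to 16 for T2 minus T0; the cause was not tested. The median over the 51 genes for T2 minus T1 was -0.057 with limma voom and -0.037 without m3 and m12.

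The direction of some small differences that were not called also turned. For T2 minus T0, ADAMTS19 had 0.106 with limma voom and 0.004 without m3 and m12 (-0.318 to 0.014 without single libraries). COL9A2 had 0.002 without the filter, 0.022 with limma voom and 0.088 without m3 and m12 (-0.211 to 0.16). MMP11 had -0.031 with limma voom, -0.029 with sex as a covariate and -0.03 without m3 and m12 (-0.133 to 0.28). For T2 minus T1, limma voom gave -0.089 for COL4A1, -0.073 for COL6A2 and -0.003 for SPARC. Leaving out single libraries there gave -0.175 to 0.028 for ADAMTS12, -0.136 to 0.253 for COL4A1, -0.303 to 0.099 for COL4A2, -0.311 to 0.016 for COL5A1, -0.046 to 0.241 for COL6A2 and -0.015 to 0.129 for LAMB2. The same ranges were -0.03 to 0.224 for SPARC, -0.155 to 0.039 for TIMP3 and -0.234 to 0.031 for TIMP4. Low counts limit the precision of MMP14, ADAMTS19, ADAMTS12, COL9A2, MMP11 and COL7A1.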

Other observations

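THBS1, a matricellular glycoprotein that activates latent TGF-beta, and ADAMTS1, a protease of proteoglycans, were not called and are named after their values were seen. Both were highest in the same library of T1 and of T2. THBS1 had 19.2 CPM in m6 and 14.4 CPM in m15, against medians of 1.89 CPM in T1 and 2.55 CPM in T2. ADAMTS1 had 61.6 CPM in m6 and 43.5 CPM in m15, against medians of 11.8 and 14.5 CPM. Libraries m6 and m15 also held the highest T1 value of 30 and the highest T2 value of 22 of the 51 matrix genes.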
